A study of Homo sapiens with 6 samples.

Results

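GABA-A receptors are pentameric chloride channels opened by gamma-aminobutyric acid (GABA), the main inhibitory transmitter of the adult brain. Each channel is assembled from subunits of several classes, named alpha, beta, gamma, delta, epsilon, theta, pi and rho, and the subunits present set its affinity for GABA, its kinetics and its response to drugs such as benzodiazepines. The transmitter binds where a beta subunit meets an alpha subunit. The genes lie in clusters on several chromosomes, and one cluster on the X chromosome holds the genes of the alpha3, epsilon and theta subunits.

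The 8 genes described here are the GABA-A receptor subunits GABRA2, GABRA3, GABRA4, GABRA5, GABRB1, GABRB2, GABRE and GABRQ, out of 22411 genes with a probe set of their own in the table. They were chosen by the measured values of this comparison, because GABRA3 had the deepest fall of the series, so their differences between the 2 groups are given as a description. Those that pass the filter on dim values entered the fit over the whole table, but its outcome for them is not used. A probe set was taken as a member when the platform annotation gave one of these symbols. For 7 of the 8 genes the probe set carried no other symbol. The only probe set of GABRE also carried MIR452 and MIR224, microRNAs hosted by that gene, so its values cannot be given to GABRE alone.

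The study measured total RNA on 6 one-colour Affymetrix arrays. In 3 arrays the RNA came from U87 MG cells, a human glioblastoma line, made to overexpress GUCY1B3 stably from a pcDNA3.1D/V5-His-TOPO plasmid, and in 3 from U87 MG cells labelled as control. GUCY1B3, now GUCY1B1, encodes the beta subunit of soluble guanylate cyclase, which makes cGMP. Both groups were grown in DMEM with serum and without treatment. The labels name no cells carrying an empty plasmid and do not say whether the arrays of a group came from separate cultures or from 1 clone, so p-values cover only array-to-array spread, which may be purely technical. Effects of GUCY1B3 cannot be told apart from anything else in which the stable line differs from the controls.

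Values are log2 RMA expression values, where a step of 1 is a 2-fold step. The medians of all features lay between 4.97 and 5.03 on the 6 arrays and serve here as the mark of a dim probe set, since no detection calls were used. The overexpressed gene, GUCY1B1, read 8.10, 8.18 and 8.40 in the overexpressing cells and 7.45, 7.70 and 7.49 in the control cells. The groups did not overlap, and the difference was 0.68 (limma, adjusted p = 0.00431; 0.0785 by an ordinary equal-variance test). The labelled cell type was compared with listed markers. VIM, CD44 and FN1, which mesenchymal glioma cells express, had means of 10.12 to 12.15 in the groups, while of the same list TNC was lower with overexpression by 0.70 (difference -0.70) and NES higher by 0.53 (limma, adjusted p = 0.00792 and 0.00125), 2 of 6 tested. Of 3 genes in the region of chromosome 9 that U87 MG cells are known to have lost, MTAP lay below the array median on all 6 arrays, but CDKN2A and CDKN2B lay slightly above it on all 6, with means of 5.18 to 5.50. Of 5 tested astrocyte markers 2 passed, GJA1 with a difference of -1.05 (limma, adjusted p = 0.00128) and SLC1A3 with one of 0.46 (adjusted p = 0.0280, and 0.00396 to 0.173 over the alternatives), while GFAP had means of 5.80 and 5.70. The part of these marker differences in the results below was not tested. Of 7 neuronal markers with a probe set, 0 of the 5 tested passed the threshold of limma or of the ordinary equal-variance test, and 1 had an unadjusted p under 0.05. Control array 3 stood apart from the other controls, with correlations across tested genes of 0.989 and 0.987 to them against 0.995 between them, and results that rest on it are given with and without it.

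RefSeq (GRCh38.p14) places 3 microRNA hairpins inside GABRA3, and the array has a probe set for each. They are shown because a fall of the host transcript could be looked for in them too. The capitals mark the mature 5p arm in each hairpin, written 5′ to 3′ on the minus strand.
MIR105-1, chrX:152392219-152392299: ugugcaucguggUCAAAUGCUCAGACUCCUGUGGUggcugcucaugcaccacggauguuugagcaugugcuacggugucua
MIR767, chrX:152393421-152393529: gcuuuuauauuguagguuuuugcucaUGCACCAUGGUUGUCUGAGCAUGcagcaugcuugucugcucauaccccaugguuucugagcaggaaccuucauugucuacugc
MIR105-2, chrX:152394412-152394492: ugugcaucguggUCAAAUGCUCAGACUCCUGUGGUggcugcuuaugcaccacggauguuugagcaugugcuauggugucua

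The hairpins of MIR105-1 and MIR105-2 differ at 2 of 81 positions and give the same mature microRNAs, so their probe sets may share sequence. The 3 hairpins give 4 distinct mature sequences. In these the capitals mark the seed, bases 2 to 8, with which a microRNA pairs to its targets, and the 4 seeds all differ.
hsa-miR-105-5p: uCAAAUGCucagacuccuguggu
hsa-miR-105-3p: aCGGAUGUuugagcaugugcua
hsa-miR-767-5p: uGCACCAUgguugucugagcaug
hsa-miR-767-3p: uCUGCUCAuaccccaugguuucu

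GABRA3, the alpha3 subunit, read 8.28, 8.45 and 8.30 on the control arrays and 4.65, 4.60 and 4.66 on the overexpression arrays. The groups lay far apart, and the arrays within a group close together. Control and overexpression means were 8.34 ± 0.09 and 4.63 ± 0.03 (SD, n = 3 each), so the overexpression mean was lower by 3.71 on the log2 scale (difference -3.71), or 13.1-fold. Control array 3 did not stand apart for this gene. It lay within 0.07 of the mean of the other controls (difference -0.07), and without it the difference was -3.73. On the overexpression arrays GABRA3 lay below the array medians, and 58.2% of all features had a higher mean there. The fold therefore depends on the background of the array and cannot show how much transcript was left.

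Among all 70523 features, named or not, 0 fell further than the GABRA3 probe set, and 2 fell by 3 or more on the log2 scale. The other one was that of SULT1B1, which fell by 3.22. These are the values that put GABRA3 first, and they support nothing further.

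GABRQ, the theta subunit, was above the array medians on all 6 arrays. It read 9.55, 9.95 and 9.61 on the control arrays and 9.44, 9.58 and 9.79 on the overexpression arrays. The groups overlapped, with means of 9.70 ± 0.21 and 9.60 ± 0.18 (SD, n = 3 each) and a difference of -0.10. The sign of this small difference rested on single arrays. Leaving out 1 array at a time gave -0.19 to 0.02, the latter without control array 2.

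GABRB1, a beta subunit from the cluster on chromosome 4, lay slightly above the array medians on all 6 arrays. CDKN2A and CDKN2B, of the region that U87 MG cells are known to have lost, read at about that level. The values therefore do not show that GABRB1 was expressed. It read 5.59, 5.70 and 5.18 on the control arrays and 5.15, 5.24 and 5.22 on the overexpression arrays. Control array 3 was within the range of the overexpression arrays, so the groups overlapped, while the other controls were higher than all 3 overexpression arrays. Group means of 5.49 ± 0.27 and 5.20 ± 0.05 (SD, n = 3 each) differed by -0.29, which became -0.44 without control array 3 and -0.18 without control array 2.

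The probe sets of the other alpha and beta subunits and the one shared by GABRE were dim. GABRA5, an alpha subunit best known from the hippocampus, read 5.04, 4.97 and 4.97 on the control arrays and 5.05, 4.99 and 5.01 on the overexpression arrays, at the level of the array medians, and the groups overlapped. GABRA2, GABRA4 and GABRB2 lay below the median on all 6 arrays. GABRA2, which contributes to the benzodiazepine-sensitive receptors, ranged from 3.41 to 3.51 with a difference of 0.02. GABRA4, an alpha subunit of extrasynaptic receptors, ranged from 3.92 to 4.13 with a difference of 0.05. GABRB2, a common beta subunit of synaptic receptors, ranged from 4.24 to 4.38 with a difference of 0.05. The probe set shared by GABRE, MIR452 and MIR224 ranged from 4.08 to 4.17 with a difference of 0.04. At such levels a change of a weakly expressed transcript may not be visible.

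**Figure D1:**
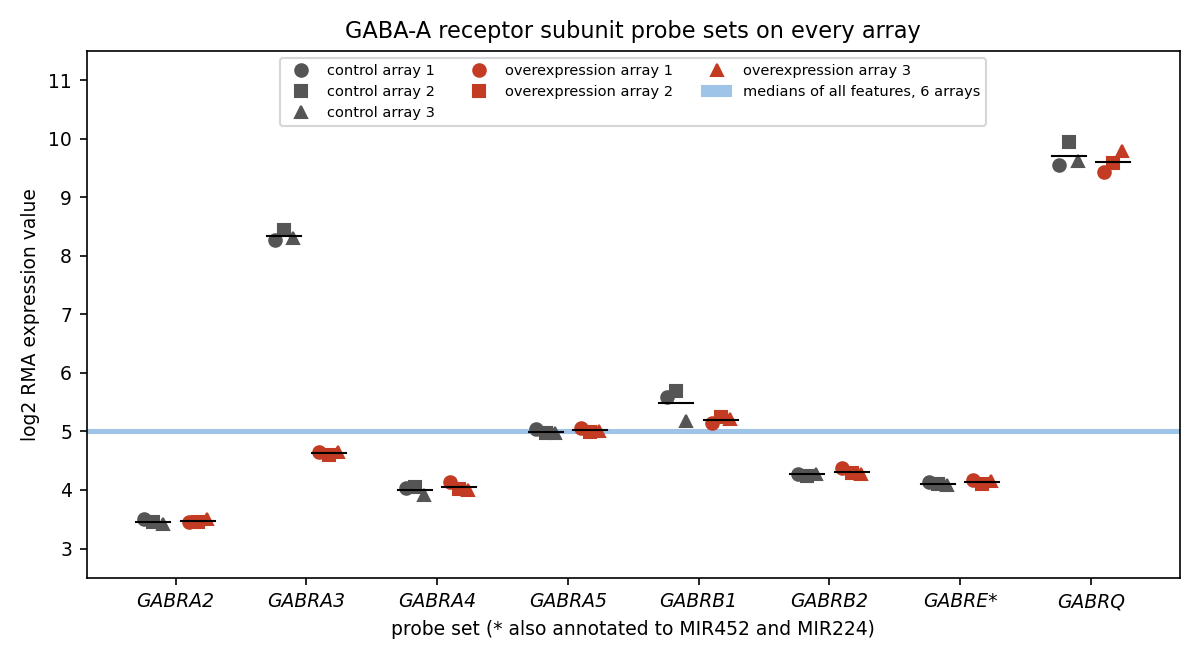
Log2 RMA values (y axis) of the 8 subunit probe sets (x axis) on the 3 control arrays (grey) and the 3 overexpression arrays (red), with group means as black lines and the range of the 6 array medians as a blue band. GABRA3 is the member whose groups do not overlap, at 8.28 to 8.45 against 4.60 to 4.66. Levels of different probe sets do not give the relative amounts of their transcripts.

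In 1 of the 8 probe sets the groups did not overlap. Among all tested genes the groups did not overlap in 29.2%, and did so with lower overexpression values in 12.2%. This count is read no further because the contrast chose the members. Of the 7 genes with a probe set of their own, 4 passed the filter on dim values (above the array median on at least 3 arrays), and GABRA3 passed it only through the control arrays.

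The neighbours of the subunit genes were not used to choose them and could be tested. Among the genes of the X chromosome within 10 places of GABRE, GABRA3 or GABRQ in the RefSeq gene order, 8 were tested and 0 passed the threshold (limma, adjusted p under 0.05), against 10.9% of all tested genes in either direction. By the ordinary test 0 passed as well, and 1 had an unadjusted p under 0.05. That gene was CSAG1, a cancer-testis gene singled out after its values were seen, which read 5.97, 5.91 and 5.95 in the overexpressing cells and 5.83, 5.81 and 5.84 in the control cells. Its groups did not overlap, but its difference of 0.12 did not pass (limma, adjusted p = 0.189, and 0.0658 to 0.443 over the alternatives). Without control array 3 the count on the X chromosome became 1, while of all 15823 tested genes 2053 were then higher and 1577 lower. The gene that then passed was VMA21, an assembly factor of the vacuolar proton pump. VMA21 read 7.95, 8.09 and 8.01 with overexpression against 7.77, 7.82 and 8.19 in the controls, where control array 3 was the highest of the 6. Its difference was 0.09 with all arrays (limma, adjusted p = 0.677) and 0.22 without control array 3 (adjusted p = 0.0277).

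The tested genes nearest to GABRA3 were of the MAGE family, antigens normally restricted to the testis and expressed in many tumours. MAGEA10, the gene next to GABRA3 in the order, read 5.49, 5.26 and 5.35 on the control arrays and 5.47, 5.33 and 5.38 on the overexpression arrays. Its difference was 0.03, with a 95% interval from -0.14 to 0.19 (limma). MAGEA3, 9 places to the other side, had a difference of 0.07, with an interval from -0.09 to 0.22. For MAGEA5P and MAGEA4 the differences were 0.08 and 0.01, with intervals from -0.16 to 0.31 and from -0.14 to 0.16. Some MAGE genes are close copies of each other, so a probe set may read more than one of them. The intervals of the 8 tested genes on the X chromosome ran from -0.19 to 0.34 on the log2 scale. MAGEA5P, MAGEA10, MAGEA4 and the neighbours PRRG3 and FATE1 had control means of 5.02 to 5.65, little above the array medians. CDKN2A and CDKN2B, of the region that U87 MG cells are known to have lost, read at about that level. A fall of these 5 neighbours may therefore not be visible.

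The probe sets of the 3 hairpins printed above lay below the array medians on all 6 arrays and could not show a change. MIR105-1 read 4.18, 4.20 and 4.75 on the control arrays and 4.28, 4.06 and 4.28 on the overexpression arrays. MIR105-2 read 3.54, 3.53 and 3.99 against 3.88, 3.49 and 3.51, and MIR767 stayed between 3.11 and 3.21. For both MIR105 probe sets control array 3 was the highest of the 6, and the groups overlapped for all 3. The probe sets read labelled total RNA of the host region and do not measure the mature microRNAs.

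**Figure D2:**
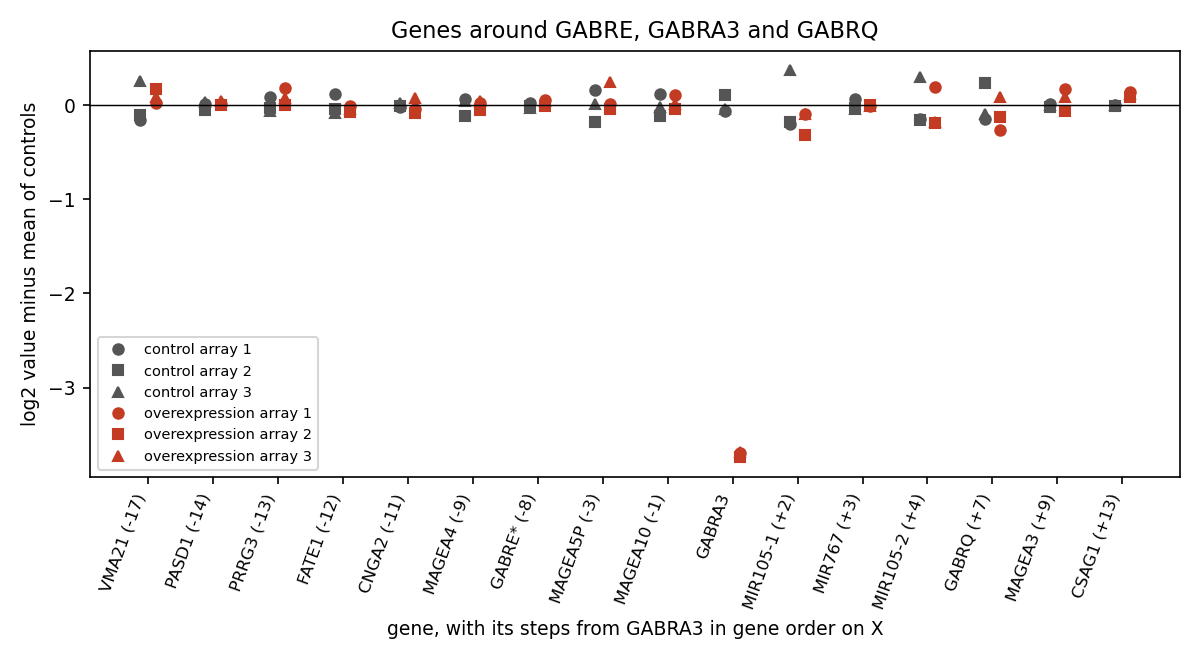
Log2 value of each array minus the mean of the 3 control arrays (y axis) for genes around GABRE, GABRA3 and GABRQ in their order on the X chromosome (x axis, steps from GABRA3 in brackets; control arrays grey, overexpression arrays red). GABRA3 lies at -3.74 to -3.68 on the overexpression arrays, and every other point shown lies between -0.31 and 0.37; the asterisk marks the probe set shared with MIR452 and MIR224.

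Around the subunit genes on the other chromosomes, 7 neighbours were tested and 1 rose. This was RAC1P2, a processed copy of RAC1 between GABRA2 and GABRA4 on chromosome 4. It read 11.44, 11.42 and 11.53 in the overexpressing cells and 11.07, 11.06 and 11.09 in the control cells, a difference of 0.39 (limma, adjusted p = 0.00405). Being a copy, it cannot be told from RAC1 by its probe set with certainty. COMMD8 and ATP10D, the other tested neighbours on chromosome 4, had differences of -0.24 and -0.20 and did not pass (adjusted p = 0.160 and 0.326). On chromosome 5 the 4 tested neighbours of GABRB2 had differences of 0.02 to 0.26 and 0 passed, by limma or the ordinary test, with 2 at an unadjusted p under 0.05. On chromosome 15 none was bright enough to be tested. Of all 15 tested neighbours 1 passed, or 6.67%, against the 10.9% of all genes. Without control array 3 it was 4, while of all 15823 tested genes 2053 were then higher and 1577 lower.

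The upstream sequences of GABRE and GABRQ are shown because they are the members that share the X-linked cluster with GABRA3. Each is the 250 bases before the gene's start in RefSeq (GRCh38.p14), 5′ to 3′, with CG dinucleotides, the sites of DNA methylation, in capitals. Methylation was not measured.
GABRQ, plus strand, chrX:152637645-152637894: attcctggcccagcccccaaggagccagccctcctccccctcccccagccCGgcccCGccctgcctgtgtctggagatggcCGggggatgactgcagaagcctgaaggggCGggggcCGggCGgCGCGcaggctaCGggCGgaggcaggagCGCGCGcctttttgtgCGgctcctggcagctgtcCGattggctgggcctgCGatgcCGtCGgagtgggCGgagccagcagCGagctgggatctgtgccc
GABRE, minus strand, chrX:151974677-151974926: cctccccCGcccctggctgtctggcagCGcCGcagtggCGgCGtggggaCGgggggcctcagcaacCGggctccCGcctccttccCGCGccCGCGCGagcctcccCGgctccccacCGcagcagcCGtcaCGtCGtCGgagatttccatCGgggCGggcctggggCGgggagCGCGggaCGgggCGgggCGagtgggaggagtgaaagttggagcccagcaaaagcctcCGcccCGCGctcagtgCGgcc

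The window of GABRQ held 20 CG dinucleotides and that of GABRE 31, against a median of 11 over 35116 promoters. Of these promoters, 67.55% held fewer than GABRQ and 89.15% held fewer than GABRE. No window of GABRA3 itself was available. The half-site of the cAMP response element, TGACG, bound by CREB, was searched on both strands. It was found in the window of GABRE but in no window of the other 5 members with a promoter in the table, GABRA2, GABRA4, GABRB1, GABRB2 and GABRQ. Of all promoters, 21.2% held it. The AP-1 site TGANTCA was found in no window of these 6 members, and 6.57% of all promoters held it. These letters describe the windows and say nothing of binding.

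Beyond the members, lists of other genes of the GABA system and of related channels were examined. They held 86 genes, 26 of them other channels of the Cys-loop superfamily, of which 75 had a probe set of their own and 54 were bright enough to be tested. In all, 2 rose and 3 fell (limma, adjusted p under 0.05), or 9.26% of those tested. Of all 15823 tested genes 6.38% were higher and 4.53% lower, 10.9% in all, so the share of the lists was near the background, and the median difference was 0.04 against 0.02 for all tested genes. The count depended on single arrays. Without control array 3, 5 rose and 6 fell, while of all 15823 tested genes 2053 rose and 1577 fell. Leaving out overexpression array 1 or 2 left 1 higher and 0 lower, and leaving out overexpression array 3 left 2 higher and 0 lower. Over all tested genes, leaving out overexpression array 1, 2 or 3 left 334, 306 and 433 higher and 215, 262 and 297 lower.

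Of 8 other GABA-A subunits with a probe set, 6 did not pass the filter on dim values, the dimmest value being 3.28. GABRD, the delta subunit of extrasynaptic receptors, and GABRR2, a rho subunit known from the retina, were tested. GABRD had a difference of 0.11 (limma, adjusted p = 0.328), and GABRR2 one of 0.08. By limma and by the ordinary test 0 of the 2 passed, and 0 had an unadjusted p under 0.05. The same counts of 0 held for the metabotropic GABA-B receptor, whose GABBR2 differed by 0.11 (adjusted p = 0.303). GABBR2 had means of 5.37 with overexpression and 5.26 in the controls. CDKN2A and CDKN2B, of the region that U87 MG cells are known to have lost, read at about that level. A change of GABBR2 may therefore not be visible.

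The genes that make, degrade and carry GABA did not pass the threshold either. In the metabolic list 0 of 5 tested genes passed by limma or the ordinary test, and 2 had an unadjusted p under 0.05. ALDH9A1, an aldehyde dehydrogenase that can form GABA from putrescine, read 6.97, 7.11 and 7.06 in the overexpressing cells and 6.72, 6.83 and 6.93 in the control cells, with no overlap and a difference of 0.23 (limma, adjusted p = 0.0760). Without control array 3 the adjusted p was 0.0130, in a range of 0.0130 to 0.233 over all alternatives. Without that array AKR7A2, an aldehyde reductase that acts on succinic semialdehyde, also passed (adjusted p = 0.00802, against 0.250 with all arrays). So 2 genes of this list were then higher, as were 2053 of all 15823 tested genes. AKR7A2 read 8.16, 8.12 and 8.09 with overexpression and 7.89, 7.81 and 8.14 in the controls, where control array 3 lay among the overexpression arrays. Among transporters 0 of 5 passed by either test, with 0 at an unadjusted p under 0.05, and SLC32A1, which loads GABA into synaptic vesicles, had a difference of 0.17 (adjusted p = 0.249). ALDH5A1, ABAT, SLC6A11, SLC32A1, SLC6A12 and SLC6A13 had control means of 4.99 to 5.58, at or little above the array medians. CDKN2A and CDKN2B, of the region that U87 MG cells are known to have lost, read at about that level. A change of these genes may therefore not be visible.

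The proteins that assemble, move and anchor GABA-A receptors made up the list with the most tested genes. Of the 20, 1 rose and 2 fell, which makes 3 of 20 against 10.9% of all genes, a difference that was not tested. Without control array 3, 2 rose and 5 fell, while of all 15823 tested genes 2053 rose and 1577 fell. TMEM35A, a chaperone known for the assembly of nicotinic acetylcholine receptors, read 5.83, 5.98 and 5.84 in the overexpressing cells and 5.33, 5.50 and 5.22 in the control cells. All overexpression arrays were above all controls, and the difference was 0.53 ± 0.08 (SE; limma, adjusted p = 0.00656). The call ended with the ordinary equal-variance test (adjusted p = 0.0839). The control mean of TMEM35A was 5.35, little above the array medians. CDKN2A and CDKN2B, of the region that U87 MG cells are known to have lost, read at about that level. The values therefore do not show that TMEM35A was expressed in the control cells.

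ZDHHC3, a palmitoyltransferase that acts on the gamma subunits, fell from 7.57, 7.66 and 7.60 on the control arrays to 7.32, 7.31 and 7.36 on the overexpression arrays. Its difference was -0.28 ± 0.05 (SE; limma, adjusted p = 0.0136). TRAK1, a kinesin adaptor related to the GABA-A receptor-interacting factor TRAK2, read 7.34, 7.35 and 7.33 on the control arrays and 7.10, 7.10 and 7.06 on the overexpression arrays, a difference of -0.25 ± 0.05 (SE; limma, adjusted p = 0.0154). In both genes the groups did not overlap. Both calls ended when any 1 overexpression array was left out, with adjusted p of 0.0538 to 0.0669 for ZDHHC3 and of 0.0607 to 0.0801 for TRAK1.

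For the scaffold gephyrin, GPHN, which anchors glycine and GABA-A receptors at synapses, the difference was -0.21 (limma, adjusted p = 0.0690), and for GABARAPL1, of the GABA-A receptor-associated protein family that also acts in autophagy, it was -0.29 (adjusted p = 0.0535). These 2 genes lie outside the rule for named genes and were picked after their values were seen, for their groups that did not overlap. CLPTM1, of the same list, also had groups that did not overlap, but was higher by 0.12 (limma, adjusted p = 0.326). In all, 6 of the 20 tested genes of the list had such groups, against 29.2% of all tested genes. Without control array 3 GPHN and GABARAPL1 passed, with adjusted p of 0.0182 and 0.0163, and CLPTM1 did not (0.561). NLGN2 and ARFGEF2, of the same list, then passed too. NLGN2 had a difference of -0.45 (limma, adjusted p = 0.00846), against -0.21 with all arrays (0.574). Control array 3, at 7.56, had its lowest value of the 6 arrays. For ARFGEF2 the difference was 0.22 (0.0217), against 0.10 with all arrays (0.603).

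In the list of endogenous modulators 0 of 4 genes passed by limma or the ordinary test, with 1 at an unadjusted p under 0.05. TSPO, the translocator protein that takes part in neurosteroid synthesis, had a difference of 0.20 (limma, adjusted p = 0.144). Of the 3 tested cation-chloride cotransporters, which set the chloride gradient that the channels work on, 0 passed by either test and 0 had an unadjusted p under 0.05. SLC12A2, the chloride importer, had a difference of -0.06 with an interval from -0.21 to 0.10.

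Among the other channels of the Cys-loop superfamily, which share the pentameric build, 24 had a probe set, 13 were tested, and 1 rose and 1 fell, or 15.4% against 10.9% of all genes, a difference that was not tested. GLRB, the beta subunit of the glycine receptor, read 5.97, 6.03 and 5.91 in the overexpressing cells and 5.60, 5.71 and 5.66 in the control cells, with a difference of 0.31 ± 0.06 (SE; limma, adjusted p = 0.0132). CHRNA5, an accessory nicotinic receptor subunit, read 7.21, 7.29 and 7.23 in the overexpressing cells and 7.54, 7.47 and 7.51 in the control cells, with a difference of -0.26 ± 0.05 (SE; limma, adjusted p = 0.0179). In both genes all arrays of one group were above all of the other. The call of GLRB ended without overexpression array 1 or 2 (adjusted p = 0.0640 and 0.0658) and with the ordinary test (0.0682). That of CHRNA5 ended without overexpression array 1, 2 or 3 (0.0886, 0.0510 and 0.0813), without control array 1 (0.0597), with the replicate number as a block (0.0573) and with the ordinary test (0.0504).

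**Figure D3:**
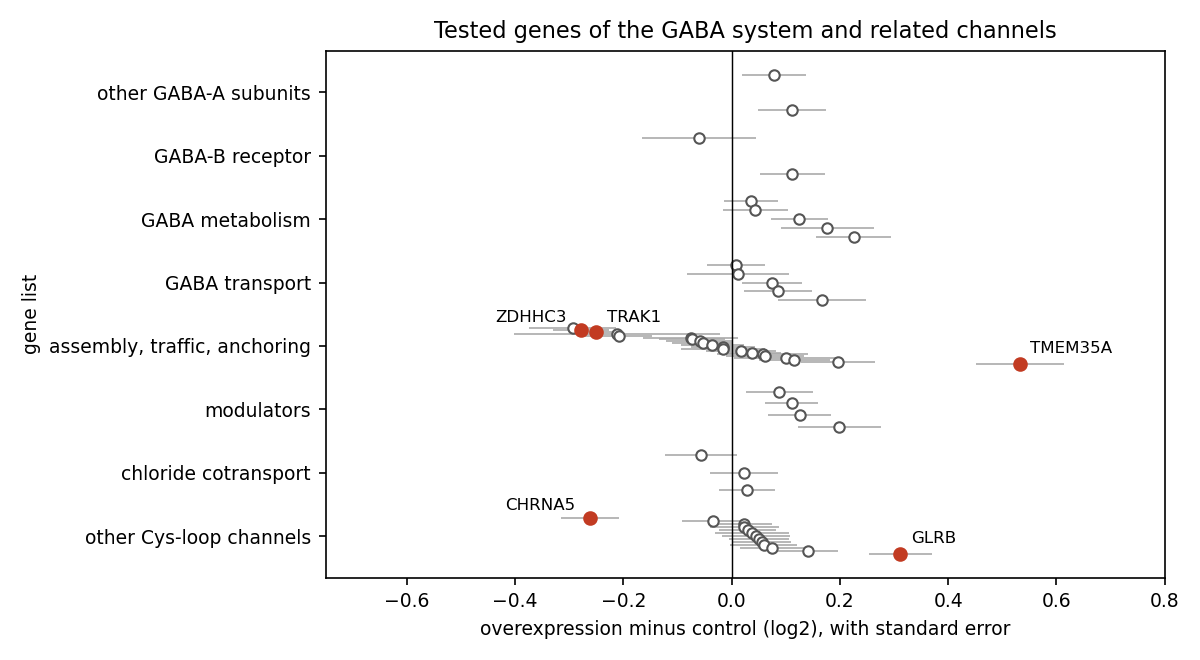
Difference, overexpression minus control, on the log2 scale with its standard error (x axis) for the 54 tested genes of the 8 lists (y axis). Filled red points passed the threshold of limma (TMEM35A and GLRB higher, ZDHHC3, TRAK1 and CHRNA5 lower), and open points did not.

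The genes whose pattern over the 6 arrays was most like that of GABRA3 were found by the root-mean-square distance between profiles, each centred on its own mean. They were SULT1B1, a cytosolic sulfotransferase, at a distance of 0.45, MMP1, interstitial collagenase, at 0.50, ZNF512, a zinc finger gene, at 0.73, FDCSP, a small secreted peptide, at 0.87, and EREG, a ligand of the EGF receptor, at 0.93. All were lower on each overexpression array than on any control array, which the choice of the nearest profiles entails. The profiles were not scaled, so the distance also weighs the depth of the fall. The order followed that depth, from -3.22 for SULT1B1 to -2.12 for EREG. All but ZNF512 differed from GABRA3 in the spread of the control arrays. SULT1B1 read 6.22, 6.80 and 7.48 there, MMP1 10.46, 10.17 and 9.43, and FDCSP 7.28, 6.52 and 5.71. The SD over the control arrays was 0.09 for GABRA3, 0.08 for ZNF512, and 0.53 to 0.88 for the other 4, against a median of 0.08 over all tested genes. ZNF512 thus shared the steady control values, at 7.16, 7.30 and 7.18, with 4.95, 4.99 and 4.95 on the overexpression arrays.

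**Figure D4:**
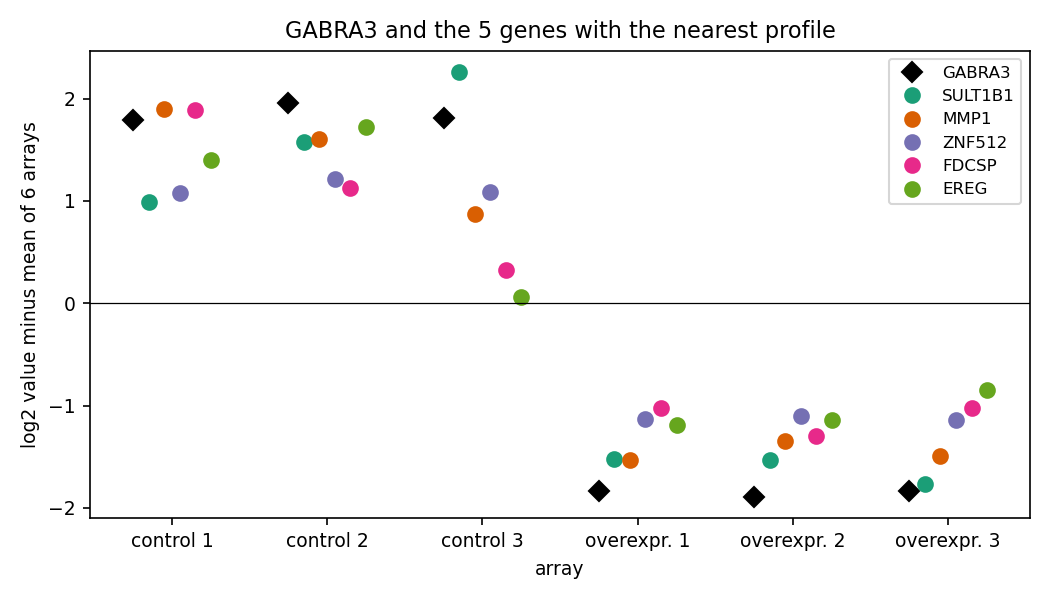
Log2 value minus the gene's mean over the 6 arrays (y axis) on each array (x axis) for GABRA3 (black diamonds) and the 5 genes with the nearest profile (coloured points). GABRA3 and ZNF512 vary little among the control arrays, with SDs of 0.09 and 0.08. Among the controls MMP1, FDCSP and EREG are lowest on control array 3, and SULT1B1 is highest there.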

How the data were processed

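The deposited values are log2 intensities for 70523 features, made by the authors with RMA in Affymetrix Expression Console, per the submitters' processing notes. Software version, library files and genome build are not given in the sources used here. Gene symbols came from the platform annotation: 23781 probe sets had 1 symbol, 1543 several and 45199 features none. Symbols were updated through RefSeq (GRCh38.p14), which matched all but 4. The probe set with the highest mean stood for a gene (22411 genes). Genes above the array median on at least 3 of the 6 arrays (15823) were tested with limma 3.58.1 (lmFit, eBayes) in R 4.3.3; p-values were adjusted by Benjamini-Hochberg over all of these genes, with a threshold of 0.05. Python 3.11.15, pandas 2.3.3 and matplotlib 3.10.9 were used for lists and plots. The number of arrays limits the precision.

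The members, lists and tests were chosen with earlier results of these data known. Named genes were the 8 members, GUCY1B1, in each list up to 4 genes past the threshold or the one with the smallest p, up to 6 neighbours past the threshold, the hosted microRNAs, and the 5 genes nearest to GABRA3 in profile. Other genes are named for their position or were picked after their values were seen. The fit was tested on simulated data. Arrays sharing a replicate number did not deviate together (correlations of 0.28, -0.10 and -0.24), so the numbers were not taken to pair them. Alternatives covered 3 normalizations, the filter, the probe set rule, the test, array weights, the replicate block and leaving out each array.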

Additional observations from a re-analysis of the deposited data

How the results depend on the processing

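The 8 members' differences were recomputed under 3 further normalizations, with the replicate number as a block and without each array in turn. All 80 values lay within 1 SD (pooled over the groups) of the deposited-scale value. Leaving out 1 of 3 arrays cannot move a difference by 1 SD, and the block cannot move it at all. Only the normalizations could therefore have gone past that limit. GABRA3 ranged from -3.74 to -3.65. The counts moved more. With the ordinary equal-variance test 246 genes were higher and 170 lower, and of the GABA lists 0 were higher. With array weights, which gave control array 3 a weight of 0.30, 1844 genes were higher and 1396 lower, 4 genes of the GABA lists were higher and 5 lower, and 3 neighbours passed. With the replicate block 589 genes were higher and 439 lower. Leaving out 1 array gave 306 to 2053 genes higher and 215 to 1577 lower, the highest counts both without control array 3, 1 to 5 genes of the GABA lists higher and 0 to 6 lower, and 1 to 4 neighbours. The replicate block ended the call of CHRNA5 and of no other gene named as called. The ordinary test ended the calls of TMEM35A (adjusted p = 0.0839), GLRB (0.0682), CHRNA5 (0.0504), GUCY1B1 (0.0785), GJA1 (0.0551), TNC (0.108) and SLC1A3. Of the genes nearest to GABRA3 in profile, FDCSP (0.104) and EREG (0.136) also missed the threshold with it, and EREG missed it without overexpression array 1 (0.0551) or 2 (0.0580). These genes were chosen for their profile over the same arrays, so their p-values do not count as tests of their fall. SLC1A3 missed the threshold under the 3 further normalizations and without any 1 overexpression array. The causes of these shifts were not tested. For GUCY1B1 and the genes named by rule from the lists, the neighbours and the nearest profiles, 288 values under alternatives were compared. Of these 265 stayed on the same side of the threshold and 0 reversed. They include genes that had not passed and the 5 genes nearest to GABRA3, whose choice entails a deep fall. Genes named otherwise, such as TNC, GJA1, SLC1A3, GPHN, GABARAPL1, AKR7A2 and VMA21, are not among them. The share therefore does not measure how stable the calls are. Probe sets below the array medians limit what can be said of GABRA2, GABRA4, GABRB2, the GABRE probe set and the microRNA hairpins. Levels at or little above the medians do the same for GABRA5 and GABRB1, and for several genes of the GABA lists.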
